A study of Caenorhabditis elegans with 6 samples.

Results

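Histone-modifying enzymes and chromatin repressors were followed in embryos of the nematode Caenorhabditis elegans that lack normal DOT-1.1, the worm counterpart of the H3K79 methyltransferase DOT1L. The 40 genes were chosen by name as writers, erasers and readers of histone methylation and acetylation other than the H3K79 machinery, and all 40 were found by sequence name among the 46659 rows of the count table. RNA depleted of ribosomal RNA was sequenced from 3 libraries of dot-1.1(knu339); ced-3(n1286) double mutants and 3 libraries of ced-3(n1286) single mutants. Every animal in the comparison therefore lacks normal CED-3, the caspase of programmed cell death, and no wild-type library entered it. Animals were grown at 20 °C, and the embryos are those that alkaline hypochlorite freed from egg-laying adults, so each library pools many embryos, with no stage given in the labels. The question was whether the enzymes of other histone marks differ in transcript level when dot-1.1 is mutant.

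The marks concerned differ in where they lie and in what they do. Methylation of H3K4 and H3K36 accompanies transcribed genes, methylation of H3K27 and H3K9 accompanies silent ones, and H4K20 methylation takes part in chromosome compaction. In the worm germ line, MES-4 and the MES-2/MES-3/MES-6 complex divide the genome between H3K36 and H3K27 methylation, and mothers load these proteins into the egg. The synMuv B genes, which include the DREAM complex, keep germline genes off in somatic cells.

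All 40 genes were well covered, with 355 to 75519 counts per library among library totals of 66316445 to 77957224. The targeted gene dot-1.1 had 4516, 2716 and 3349 counts in single mutant replicates 1 to 3 against 3980, 2144 and 2813 in double mutant ones, an overlapping spread (log2 fold change -0.21 ± 0.33 SE, adjusted p = 0.806, edgeR). It was lower in 3 of 3 pairs, by 0.10, 0.29 and 0.35 on the log2 scale, and did not pass with the replicate number as a block either (-0.24 ± 0.093 SE, adjusted p = 0.163). The labels do not say what knu339 does to the transcript, and the genotypes rest on them alone. Of the markers of maternal and early embryonic RNA, 16 of 16 were counted in every library, while adult markers (yolk protein genes and col-19) summed to 1.33 to 4.14 CPM. CPM here are counts scaled to a common library total with TMM factors.

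Between genes, levels are given as CPM per kb of exon. The genes spanned 4.09 to 198 CPM per kb around a median of 40.2, and 39 of 40 lay above the median of all tested protein-coding genes, 10.2. The highest level belonged to lin-53, the RbAp48-like histone chaperone shared by several complexes, at 208 ± 26.9 CPM per kb in single and 187 ± 32.3 in double mutants (SD, n = 3 each). Next came set-1, which encodes the H4K20 monomethyltransferase, at a mean of 161, and let-418, the Mi-2 remodeller of NuRD, at 157. The lowest were set-32, a relative of the H3K9 methyltransferase gene set-25, at 4.09, and the HP1 gene hpl-1 at 13.3, whereas the other HP1 gene, hpl-2, stood at 58.6. Of the exon bases, 33.5% in set-1 lie opposite the antisense RNA gene anr-1, and 22.7% in mes-6 coincide with C09G4.4 on the same strand, so these levels may include reads of their neighbours.

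**Figure D1:**
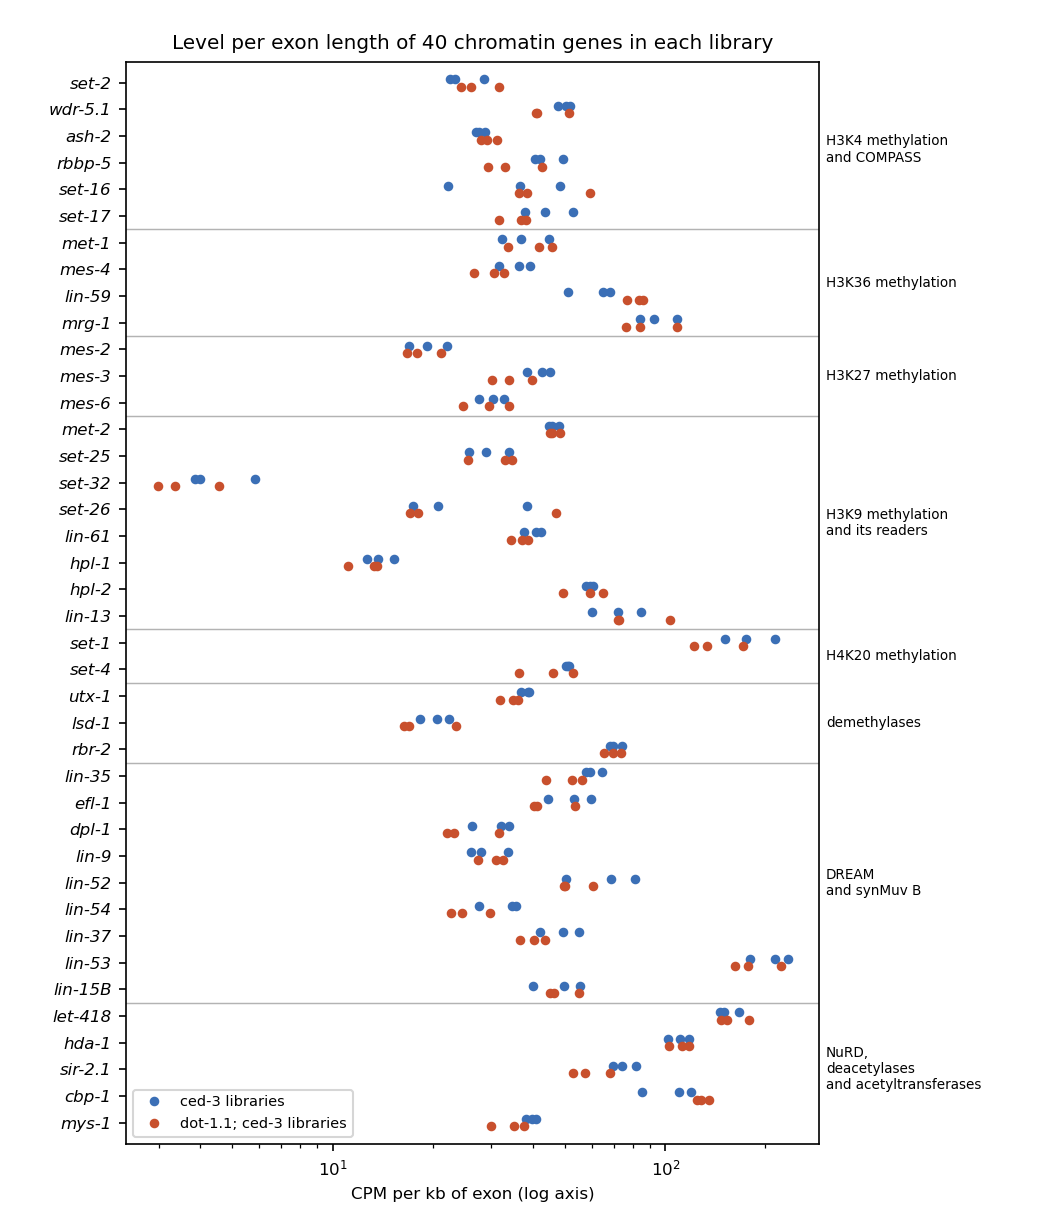
Level of each of the 40 genes in CPM per kb of exon on a log axis, 1 point per library, blue for the 3 ced-3 libraries and red for the 3 dot-1.1; ced-3 libraries, with grey lines between the 8 classes. The points of the genotypes overlap for 34 of the 40 genes, and lin-53, set-1 and let-418 stand highest.

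No gene of the set passed the test across all 17365 tested genes when genotype was the only term. This was 0 of 40 in edgeR, against 0.0806% of all genes called higher and 0% called lower. At an unadjusted p under 0.05 there were 1 higher (lin-59) and 1 lower (sir-2.1), and DESeq2 also called 0. Fitted fold changes were small, from 0.789-fold for lin-54 to 1.34-fold for lin-59. Over all genes DESeq2 called 2.29% higher and 0.552% lower, and an unadjusted p under 0.05 was reached by 7.57% and 4.5% in edgeR. The 95% interval lay inside a 2-fold change in either direction for 38 of 40 genes, the exceptions being set-16 and set-26, so changes of 2-fold or more are outside the intervals of nearly all of these genes, while smaller ones are not.

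With the replicate number as a block, 1 of 40 rose and 0 fell, against 2.57% and 1.45% of all tested genes. At an unadjusted p under 0.05 this fit had 3 of the 40 higher and 11 lower, against 11.6% and 12.9% of all tested genes. The median log2 fold change of the 40 was -0.12 without the block and -0.13 with it, beside -0.02 for all tested genes in both fits. For tested protein-coding genes it was -0.034 and -0.037. Between replicates, the median level of the 40 had an SD of 0.119 on the log2 scale, about as large as this shift. Below 0 lay 26 of 40, or 65%, against 52.1% of all tested genes and 54.5% of tested protein-coding genes. The groups did not overlap for 2 genes that were higher (lin-59 and cbp-1) and for 4 that were lower (sir-2.1, lin-35, utx-1 and mys-1). These are 5% and 10% of the set, where 10.5% and 7.99% of all tested genes separated in the same way. Within the pairs, 19 genes, or 47.5%, were lower in the double mutant in 3 of 3, against 25.6% of all tested genes, and 5 were higher in 3 of 3, against 22.3%.

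**Figure D2:**
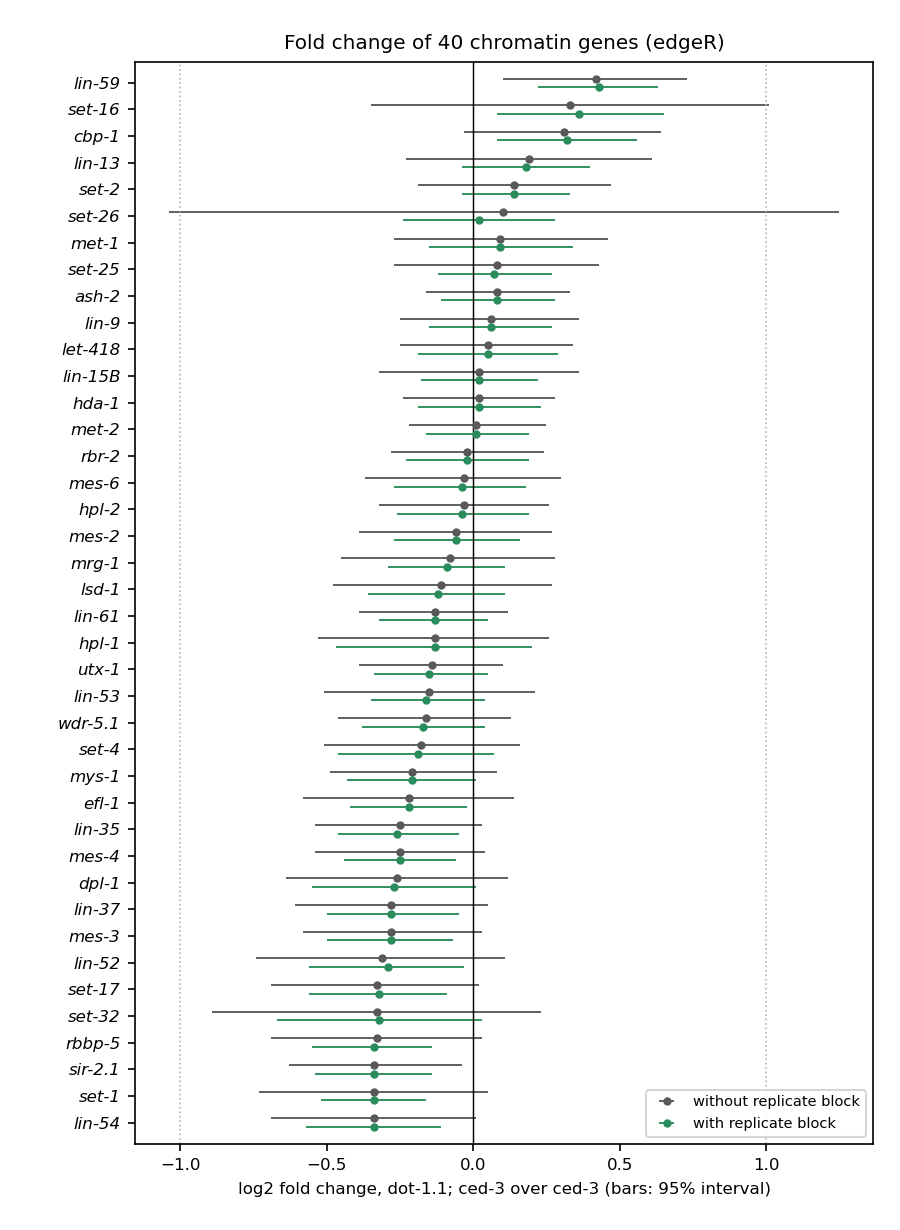
Log2 fold change of dot-1.1; ced-3 over ced-3 for each of the 40 genes with its 95% interval, grey without and green with the replicate block, and dotted lines at a 2-fold change. Values run from -0.34 to 0.42 without the block, and lin-59 is the gene called with it.

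Among the H3K36 genes, lin-59 was the one gene of the 40 called with the block. LIN-59 is a SET protein related to Drosophila Ash1, and its gene (T12F5.4) lies on chromosome I from 3713449 to 3721157. Its level was 283, 222 and 297 CPM in the single mutants and 362, 334 and 373 CPM in the double mutants. Every double mutant library was thus above every single mutant library, by 0.35, 0.59 and 0.33 on the log2 scale in the pairs. It rose 1.34-fold in the blocked fit (log2 fold change 0.43 ± 0.090 SE, adjusted p = 0.0445, edgeR), and had an adjusted p of 0.315 without the block. The blocked call was lost without pair 1 (adjusted p = 0.27) or pair 3 (0.137), stood without pair 2 (0.0145), and was lost when the length trend described below was removed (log2 fold change 0.30, adjusted p = 0.0749, edgeR).

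Of the other H3K36 genes, met-1 was also above 0 and mes-4 and mrg-1 were below it, and none passed in either edgeR fit. MES-4 is the methyltransferase that carries H3K36 marks through the germ line, and mes-4 was at 122, 113 and 98.9 CPM in single and 95.4, 102 and 83.2 CPM in double mutants. The ranges overlapped, although each double mutant was below the single mutant of its number (log2 fold change -0.25 ± 0.13 SE, adjusted p = 0.470, edgeR, 0.121 with the block). For met-1, the Set2-type enzyme that works with elongating polymerase, the fold change was 0.09 on the log2 scale, and for mrg-1, a chromodomain reader of this mark, -0.08. The most abundant of the class per kb, mrg-1, was at 139, 163 and 126 CPM against 115, 163 and 126 CPM, equal in pairs 2 and 3 to the precision given.

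In the H3K4 class 3 of 6 genes had fitted values above 0 and 3 below. SET-2 is the catalytic subunit of the COMPASS complex, and set-2 was at 156, 123 and 128 CPM in single and 173, 143 and 133 CPM in double mutants, higher in 3 of 3 pairs but with overlapping ranges (log2 fold change 0.14 ± 0.15 SE, adjusted p = 0.704, edgeR). For the core subunit gene rbbp-5 (F21H12.1) the fitted value was below 0, with levels of 57.9, 70.4 and 60.0 CPM in single and 42.0, 60.7 and 47.0 CPM in double mutants. Its ranges overlapped through replicate 2, while all 3 pairs were lower (log2 fold change -0.33 ± 0.16 SE, adjusted p = 0.446, edgeR, 0.0708 with the block). Of the remaining core subunits, wdr-5.1, the most abundant of the class per kb, was at 67.5, 69.4 and 63.7 CPM against 55.0, 68.9 and 54.7 CPM, and ash-2 had a log2 fold change of 0.08. DESeq2 with the block did call rbbp-5 (adjusted p = 0.0296).

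The longest gene of the set, set-16 (T12D8.1), encodes the MLL-type methyltransferase and varied most between libraries of this class. Its level was 376, 173 and 286 CPM in single and 464, 284 and 300 CPM in double mutants, where replicate 1 was high and replicate 2 low in each genotype. It was higher in 3 of 3 pairs but overlapped widely (log2 fold change 0.33 ± 0.30 SE, adjusted p = 0.664, edgeR, 0.129 with the block). It is described for this spread, which was noticed in the data. The short gene set-17, for a PRDM-related H3K4 methyltransferase active in the germ line, was at 52.1, 42.9 and 37.2 CPM against 36.2, 37.4 and 31.2 CPM (log2 fold change -0.33 ± 0.16 SE, adjusted p = 0.437, edgeR). Double mutant replicates 1 and 3 lay below the lowest single mutant library and replicate 2 just above it.

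In the MES complex, the worm form of Polycomb repressive complex 2, mes-3 was the subunit gene with the lowest fitted value. The level of mes-3 was 141, 133 and 120 CPM in single and 124, 94.5 and 106 CPM in double mutants, lower in all 3 pairs, with replicate 1 of the double mutants inside the single mutant range (log2 fold change -0.28 ± 0.13 SE, adjusted p = 0.444, edgeR, 0.119 with the block). The catalytic subunit gene mes-2 and the WD40 subunit gene mes-6 had log2 fold changes of -0.06 and -0.03. On the opposing side, utx-1, for the H3K27 demethylase, was at 149, 141 and 148 CPM against 122, 139 and 134 CPM. These ranges did not overlap, yet the difference was 0.01 on the log2 scale in pair 2 and the gene did not pass (log2 fold change -0.14 ± 0.11 SE, adjusted p = 0.599, edgeR).

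The H3K9 class, which forms and reads heterochromatin and is linked to nuclear RNA interference, held both steady and variable genes. MET-2 places the first methyl groups on H3K9, and met-2 was at 188, 185 and 198 CPM in single and 186, 189 and 199 CPM in double mutants, with a 95% interval from -0.22 to 0.25 on the log2 scale. For set-25, which encodes the enzyme of H3K9 trimethylation, the fold change was 0.08, and for the scarce set-32 it was -0.33 with a wide interval from -0.89 to 0.23. The HP1 genes hpl-1 and hpl-2 were at -0.13 and -0.03, and lin-61, for an MBT-repeat reader of this mark, was at -0.13. LIN-13 is a zinc-finger protein that brings HPL-2 to chromatin, and lin-13 was at 595, 510 and 426 CPM against 726, 508 and 511 CPM, the highest level per kb of the class (log2 fold change 0.19 ± 0.18 SE, adjusted p = 0.685, edgeR).

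The gene of this class with the largest SE without the block, set-26, set replicate 1 apart far more than the genotypes. SET-26 is a PHD and SET domain protein, and set-26 was at 205, 92.8 and 110 CPM in single and 250, 96.1 and 90.7 CPM in double mutants. Replicate 1 was thus above the other libraries in both genotypes. The pairs differed by 0.29, 0.05 and -0.28 on the log2 scale, and the SE of the fold change was 0.48 without and 0.11 with the block (log2 fold change 0.10 and 0.02). It was singled out after its values were seen.

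**Figure D3:**
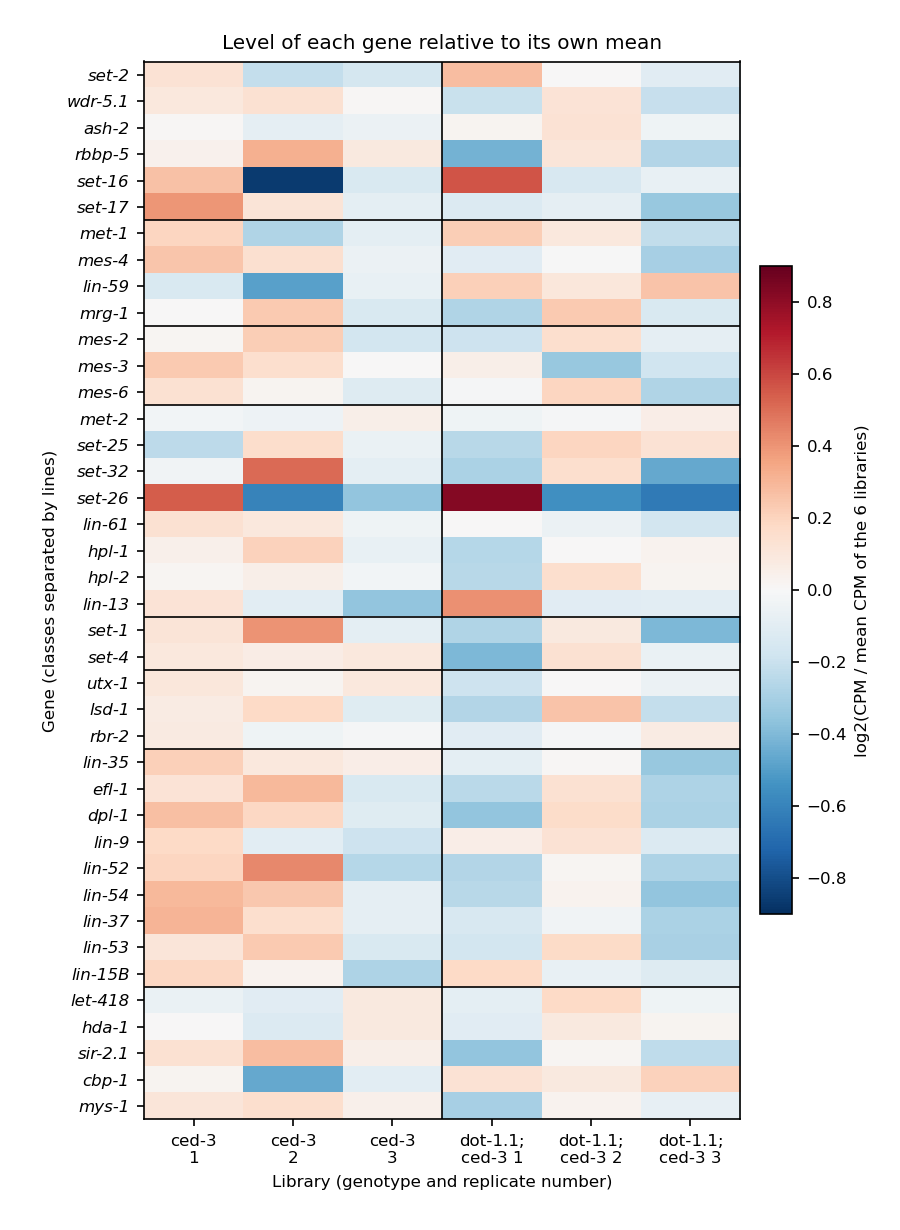
Level of each gene in each library as log2 of its CPM over its mean CPM in the 6 libraries, from blue (below the mean) to red (above), with black lines between classes and between genotypes. For set-26 replicate 1 is red in both genotypes, at 205 and 250 CPM. Most DREAM genes are paler or blue in double mutant replicates 1 and 3 and also in single mutant replicate 3.

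For H4K20, set-1 (T26A5.7, chromosome III, 6450792 to 6452378) was at 231, 282 and 200 CPM in single and 176, 226 and 161 CPM in double mutants. It was lower by 0.39, 0.32 and 0.31 on the log2 scale in the pairs, an even difference, but the libraries of each number moved together and the ranges overlapped. Its log2 fold change was -0.34 ± 0.17 SE without the block (adjusted p = 0.463, edgeR) and -0.34 ± 0.079 with it (adjusted p = 0.0550), just outside the threshold. The gene of the enzyme for the further methylation steps, set-4, stood at 67.2, 66.2 and 67.5 CPM in single mutants and at 47.6, 69.4 and 60.5 CPM in double mutants. Its spread was thus much wider in the double mutants, and pair 2 had the opposite sign to pairs 1 and 3. The sources used here do not say whether counting used the strand, and without it reads of anr-1 cannot be told from those of set-1.

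Of the demethylase genes, utx-1 had a log2 fold change of -0.14, and the others had fitted values smaller in size. The H3K4 demethylase gene rbr-2, the most abundant of them per kb, was at 379, 349 and 355 CPM in single and 333, 356 and 376 CPM in double mutants, with overlapping ranges and a log2 fold change of -0.02 ± 0.11 SE. For lsd-1, of the family of amine oxidase demethylases, the log2 fold change was -0.11 ± 0.17 SE. All 3 demethylase genes were thus below 0, and none passed in either edgeR fit.

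Most genes of the DREAM and synMuv B class had fitted values below 0. DREAM joins a retinoblastoma-like protein (LIN-35), an E2F and DP pair (EFL-1 and DPL-1) and the MuvB proteins into a repressor of cell-cycle and germline genes. Of the 9 genes, 7 were below 0, with a median log2 fold change of -0.25, and 0 passed in either edgeR fit (5 were lower at an unadjusted p under 0.05 with the block, where 12.9% of all tested genes were). The exceptions were lin-9 at 0.06 and lin-15B, for a THAP-domain repressor, at 0.02. Across the whole set 26 of 40 genes were below 0, against 52.1% of all tested genes. Of the 29 genes of the set with up to 4 kb of exon, which include genes of this class, 4 were above 0. Of tested protein-coding genes, 39.4% under 1 kb, 42.5% at 1 to 2 kb and 53.6% at 2 to 4 kb were above 0. All genes of the H3K27, H4K20 and demethylase classes were below 0 too, so the direction was not particular to this class. Below 0 were also 3 of 6 H3K4, 2 of 4 H3K36 and 4 of 8 H3K9 genes, and 2 of 5 in the NuRD and acetylation class. In a bulk sample, fewer cells that express a gene and less RNA per cell cannot be told apart.

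Of its genes, lin-35 (C32F10.2) had no overlap between genotypes, at 207, 191 and 186 CPM in single and 168, 180 and 141 CPM in double mutants (log2 fold change -0.25 ± 0.13 SE, adjusted p = 0.459, edgeR, 0.129 with the block). The DNA-binding subunit gene lin-54 (JC8.6) was at 56.1, 54.3 and 43.3 CPM against 38.5, 46.8 and 35.8 CPM, with an overlap through single mutant replicate 3 and double mutant replicate 2 (log2 fold change -0.34 ± 0.15 SE, adjusted p = 0.422, edgeR, 0.0860 with the block). For lin-37 the values were 51.7, 46.3 and 39.4 CPM against 37.8, 40.9 and 34.3 CPM, with an adjusted p of 0.466 (edgeR). All 3 genes were lower in every pair. Log2 fold changes were -0.22 for efl-1, -0.26 for dpl-1 and -0.31 for lin-52, and lin-53 was at 312, 341 and 263 CPM against 259, 327 and 237 CPM, again lower in 3 of 3 pairs and overlapping.

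Among the acetyltransferase and deacetylase genes, cbp-1 and sir-2.1 had fitted values of opposite sign. CBP-1, the worm CBP homologue, acetylates histones at enhancers and promoters, and cbp-1 (R10E11.1) was at 851, 608 and 782 CPM in single and 914, 887 and 966 CPM in double mutants. The groups did not overlap, and single mutant replicate 2 stood well below the rest (log2 fold change 0.31 ± 0.15 SE, adjusted p = 0.443, edgeR, 0.115 with the block). The sirtuin deacetylase gene sir-2.1 (R11A8.4, chromosome IV, 10363318 to 10366229) was at 151, 166 and 142 CPM against 107, 139 and 117 CPM, without overlap and lower by 0.50, 0.26 and 0.28 in the pairs (log2 fold change -0.34 ± 0.13 SE, adjusted p = 0.368, edgeR, 0.0639 with the block). The Tip60-type acetyltransferase gene mys-1 was also separate, at 63.5, 65.5 and 60.8 CPM against 47.9, 60.3 and 56.0 CPM, with a log2 fold change of -0.21 ± 0.12 SE that did not pass (adjusted p = 0.524, edgeR).

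Of the 40, let-418 and hda-1, whose products both belong to NuRD, had fitted values of 0.05 and 0.02 on the log2 scale. The most abundant gene of this class per kb, let-418, was at 851, 827 and 943 CPM in single and 834, 1007 and 864 CPM in double mutants, and the class I deacetylase gene hda-1 had a 95% interval from -0.24 to 0.28 on the log2 scale. DESeq2 with the block called cbp-1 higher (adjusted p = 0.0441) and sir-2.1, set-1 and lin-54 lower (adjusted p = 0.0168, 0.00909 and 0.0435), in a fit that called 6.07% of all genes higher and 6.09% lower. With lin-59 and rbbp-5, these were its 6 calls among the 40.

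**Figure D4:**
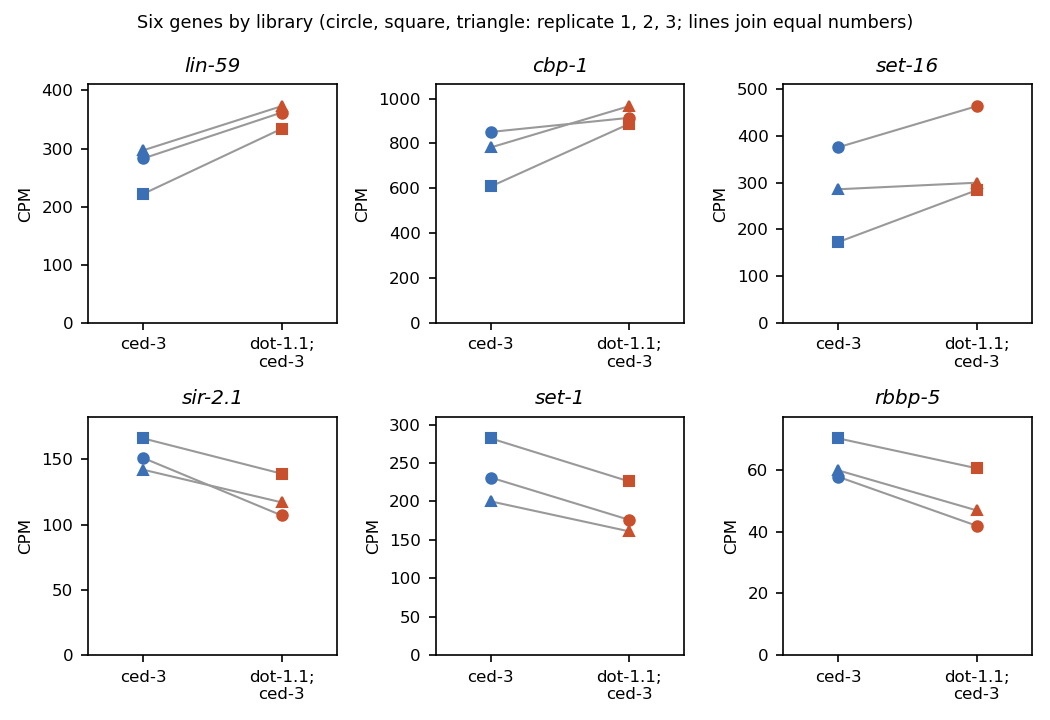
CPM of lin-59, cbp-1, set-16, sir-2.1, set-1 and rbbp-5 in each library, blue for ced-3 and red for dot-1.1; ced-3, with lines joining libraries of the same replicate number and each axis starting at 0. All lines slope up for the first 3 genes and down for the others, of which lin-59 was called with the block in edgeR, and the genotypes do not overlap for lin-59, cbp-1 and sir-2.1.

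The direction of a gene in the set went with the length of its exons. Of the 11 genes over 4 kb, 10 had fitted values above 0, with rbr-2 the exception, and the median log2 fold change was 0.10. Of the 4 genes under 1 kb, 0 were above 0 (median -0.30), and the 14 genes of 1 to 2 kb had 1 above 0, hda-1 (median -0.17). The 11 genes of 2 to 4 kb had 3 above 0 (median -0.14). Across the 40 genes, Pearson's r between log10 exon length and log2 fold change was 0.72 and Spearman's rho was 0.69. For log10 gene span, from start to end on the chromosome, r was 0.68 and rho 0.69. These are descriptions, since the genes share the same 6 libraries. The log10 mean CPM of a gene also went with its fold change (r = 0.58 and rho = 0.60 across the 40). This level was not divided by exon length, so length enters it too. Across all 15080 tested protein-coding genes the same level and the fold change had r = -0.15 and rho = -0.065.

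Against exon length, the tested protein-coding genes had a trend of the same direction as the 40. Over 4 kb, 75.6% of 754 tested protein-coding genes were above 0 with a median of 0.15, and under 1 kb it was 39.4% of 4505 with a median of -0.10. In every length class the median of the 40 genes lay below that of the tested protein-coding genes. It was -0.30 against -0.10 under 1 kb and -0.17 against -0.06 at 1 to 2 kb. At 2 to 4 kb it was -0.14 against 0.03, and over 4 kb 0.10 against 0.15. Between exon length and fold change across the 15080 protein-coding genes, r was 0.089 and rho 0.18, and for gene span they were 0.1 and 0.22.

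The length trend also separated libraries of one genotype. In single mutant replicate 2 the protein-coding genes over 4 kb were at a median of -0.26 on the log2 scale from their mean over the 6 libraries, against 0.02 and -0.00 in single mutant replicates 1 and 3. They were at 0.13, -0.01 and 0.12 in double mutant replicates 1, 2 and 3. The genes of the set over 4 kb were at 0.14, -0.21 and -0.08 in single and 0.23, -0.01 and -0.03 in double mutant replicates 1, 2 and 3. By pair, the medians of these 11 genes were 0.11, 0.22 and 0.07.

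When each library's trend against exon length was removed, in a fit chosen after seeing the data, 8 of 40 genes were above 0 in place of 14 and the median stayed at -0.12. Across the 40, exon length and fold change then still had r = 0.37 and rho = 0.32, against -0.0071 and 0.031 across the tested protein-coding genes. For gene span r was 0.4 and rho 0.41 across the 40, against 0.026 and 0.1. Fitted values of the longest genes were then 0.14 for set-16, 0.12 for cbp-1 and -0.02 for lin-13. With the block added, 0 of the 40 were called, against 2.23% of all genes higher and 1.03% lower. At an unadjusted p under 0.05 this fit had 1 of the 40 higher and 10 lower. Of all 17365 tested genes, 1988 were higher and 2081 lower at that threshold. The lowest adjusted p was then that of sir-2.1 (log2 fold change -0.35, adjusted p = 0.0527, edgeR), followed by mes-4 (-0.32, 0.0614) and lin-35 (-0.33, 0.0640).

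**Figure D5:**
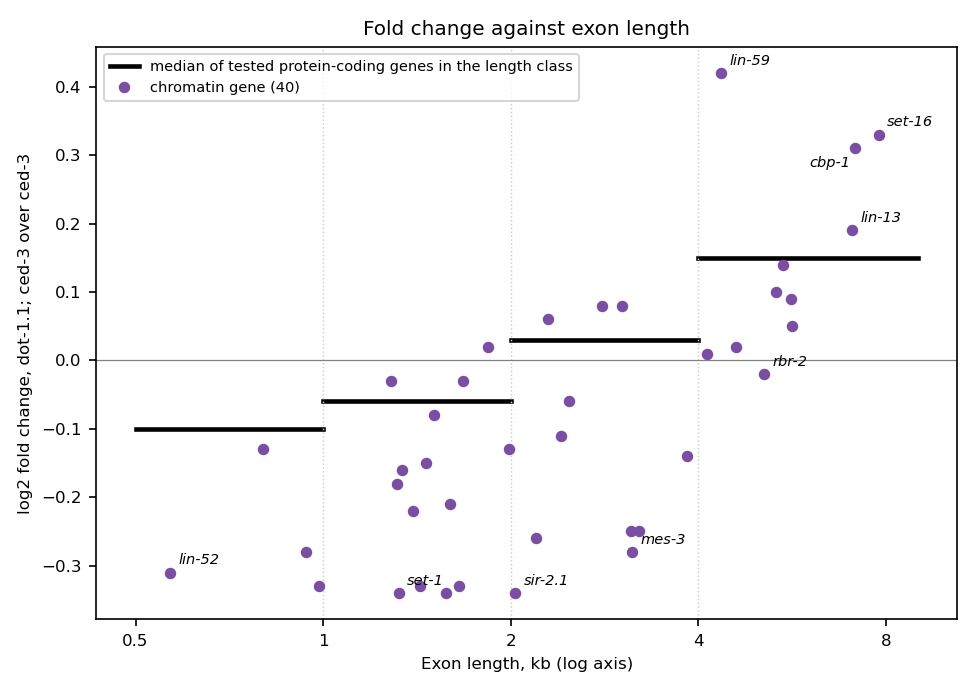
Log2 fold change without the block against exon length in kb on a log axis for the 40 genes (purple points), with the median of all tested protein-coding genes in 4 length classes (black bars) and dotted lines at 1, 2 and 4 kb. Of 11 genes over 4 kb 10 lie above 0, and the genes of 1 to 4 kb lie mostly below the bars.

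Markers of developmental stage and tissue differed between the same libraries. The 16 maternal and early embryonic markers summed to 1203, 1288 and 935 CPM in single and 771, 1303 and 834 CPM in double mutants, and the median of the 40 chromatin genes relative to their mean was 0.13, 0.12 and -0.06 against -0.11, 0.10 and -0.14 on the log2 scale. In the double mutants, replicates 1 and 3 were low and replicate 2 high in both measures. Of these maternal markers 15 of 16 were below 0 (median log2 fold change -0.26) and 1 fell with the block, a fit in which 2.57% of all tested genes rose and 1.45% fell. The early zygotic markers, 11 found, summed to 364 to 778 CPM against 265 to 610 CPM, 9 of 9 tested lay below 0 (median -0.43), and 1 fell with the block. The 10 muscle and pharynx markers summed to 2576 to 3711 CPM against 3547 to 6826 CPM, all 10 were above 0 (median 0.58), and 6 rose with the block. The 8 neuron markers summed to 532 to 595 CPM against 624 to 739 CPM, all 8 were above 0 (median 0.34), and 3 rose with the block. The 6 intestine markers summed to 475 to 533 CPM against 658 to 750 CPM, 4 were above 0 (median 0.39), and 3 rose with the block. The 7 epidermis markers summed to 1410 to 2031 CPM against 1490 to 1747 CPM, and the 6 germline markers to 146 to 198 CPM against 117 to 207 CPM, with medians of -0.10 and -0.17 and 0 called with the block in either list. Of the 7 adult markers the sum was 1.33 to 2.27 CPM against 3.65 to 4.14 CPM, and of the 6 sperm markers 0.474 to 1.21 CPM against 0.745 to 0.831 CPM. The 6 adult markers tested were above 0 (median 1.84), and 0 adult or sperm markers were called with the block. None of the matched markers was at 0 in all libraries, and of the 7 adult markers 4 were counted in every one. The part of stage, tissue and length in the levels of the chromatin genes was not tested.

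Among 97 further chromatin genes found of a list of 101, 95 were tested and 0 passed without the block, and DESeq2 called 0. At an unadjusted p under 0.05 there were 3 higher and 4 lower, against 7.57% and 4.5% of all tested genes. With the block, 1 rose and 1 fell, against 2.57% and 1.45% of all tested genes, and 93 did not pass. Under DESeq2 with the block 2 of 97 rose and 4 fell, against 6.07% and 6.09%. Their median log2 fold change was -0.07 in both fits, and 59 of 95, or 62.1%, were below 0 without the block, against 52.1% of all tested genes. The gene that rose was tam-1 (F26G5.9, chromosome V, 4958603 to 4963102), a RING finger gene that counters silencing in repeated transgenes, at 364, 277 and 317 CPM in single and 501, 384 and 394 CPM in double mutants. Its groups did not overlap (log2 fold change 0.42 ± 0.086 SE with the block, adjusted p = 0.0427, edgeR), and the call ended when the length trend was removed (adjusted p = 0.0586). The gene that fell was the SET-domain gene set-22 (Y32F6A.1, chromosome V, 10436912 to 10441203), at 15.3, 22.4 and 9.66 CPM against 7.64, 14.6 and 6.80 CPM. Each pair was lower while the ranges overlapped (log2 fold change -0.71 ± 0.15 SE with the block, adjusted p = 0.0430, edgeR), and the call stood with the length trend removed (adjusted p = 0.0492).

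Among the groups of this longer list, few genes came near the threshold. The COMPASS and MLL partners numbered 6, all below 0 with a median of -0.16, and 0 passed. Among the 11 further demethylase genes tested, jmjd-3.2, a relative of utx-1, was at 95.0, 85.0 and 89.6 CPM in single and 61.2, 74.9 and 60.9 CPM in double mutants. It had no overlap and an adjusted p of 0.0540 with the block (log2 fold change -0.46 ± 0.11 SE, edgeR), and passed the test when the length trend was removed in that fit (-0.50, adjusted p = 0.0369). It was named after its values were seen. The 6 further NuRD and MEC genes had a median of 0.12 and held both lin-40, a metastasis-associated protein homologue, at 0.35, and rba-1, a paralogue of lin-53, at -0.36, neither of which passed (adjusted p = 0.0686 and 0.0560 with the block, edgeR). DESeq2 with the block called 1 of these 6 higher and 1 lower.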

How the data were processed

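Raw read counts per gene were used as deposited by the authors, whole numbers with 1 column per library. HISAT2 2.0.5, StringTie and build WBcel235 are named in the submitters' processing notes. The sources name no counting program, strand setting or treatment of multi-mapping reads. Rows were matched by exact sequence name to the Ensembl release 115 annotation of WBcel235 (46179 of 46659 rows), which gave symbols, coordinates and exon lengths (union of exons). Unmatched rows held 0.521% of counts and stayed in totals and tests. Columns were assigned through the sample descriptions in the labels.

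Genes that passed filterByExpr (17365, with all 40 members) were scaled by TMM and tested with edgeR 4.0.16 in R 4.3.3 (robust quasi-likelihood, genotype only, two-sided, Benjamini-Hochberg over all tested genes, called under 0.05). Standard errors came from the F statistic. Recovery of known changes was checked on simulated data. Alternatives were a replicate block, DESeq2 1.42.0, RLE scaling, no filter, leaving out libraries or pairs, and, added after seeing the data, removal of each library's lowess trend (span 0.3) against exon length.

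Same-numbered libraries of the genotypes deviated together from their genotype means (r = 0.17 to 0.32, against -0.24 to 0.059 for other numbers). All 3 pairs were above 0.1, and libraries of 1 number were therefore treated as pairs in the blocked fits and the pairwise differences. The main fit, with genotype only, did not use these pairs. The labels name no shared day or culture, so the pairing was taken from the same counts. The sample descriptions also carry the same numbers in both genotypes, without saying what a number marks. The biological coefficient of variation was 0.265 without and 0.201 with the block. Replicates of a genotype differed well beyond sampling noise (chi-square per degree of freedom 98 to 190). Their titles number them as biological replicates. The p-values set the genotype difference against the variation between these samples. In the blocked fits this is the variation left after the replicate number is taken into account. Members and lists were chosen with earlier results of these data known. Values in every library are given for members called in either edgeR fit, for the 10 with the smallest p in each, and for the most abundant of each class per kb. From the longer list those called in either fit are named. Other genes are named by role or as stated.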

Additional observations from a re-analysis of the deposited data

How the results depend on the processing

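Without the block, 14 genes of the whole table were called higher and 0 lower, and 0 of the 40 chromatin genes. With the replicate block the counts were 446, 251 and 1, with DESeq2 382 and 92, with DESeq2 and the block 930, 933 and 6, and with no filter 4 higher. Removing the length trend with the block gave 387 and 179. Leaving out 1 library without the block gave 1 to 42 genes higher, 0 to 1 lower and 0 of the 40. Leaving out 1 pair with the block gave 9 and 2 genes without pair 1, 1361 and 1115 without pair 2 and 160 and 21 without pair 3, with 0, 10 and 0 of the 40. The fit without pair 2 thus had the most calls over the whole table, from fewer libraries than the main fit. Its 10 were lin-59, higher, and rbbp-5, set-17, mes-4, set-1, set-4, lin-35, dpl-1, lin-54 and sir-2.1, lower. The median of the 40 ranged from -0.17 to -0.05 over these fits. Of 640 values of single genes, 576 kept their sign and stayed uncalled, 17 became called and 47 changed sign, in 14 genes, all uncalled. With the length trend removed, the sign changed, without and with the block, for set-2 (-0.02 and -0.02), met-1 (-0.07 and -0.08), met-2 (-0.11 and -0.11), set-26 (-0.05 and -0.14), hpl-2 (0.02 and 0.02), lin-13 (-0.02 and -0.01), lin-15B (-0.13 and -0.12) and let-418 (-0.11 and -0.12). Leaving out 1 library changed it for mes-6 (-0.12 to 0.09), rbr-2 (-0.05 to 0.03), met-1 (-0.02 to 0.24), mrg-1 (-0.21 to 0.03), mes-2 (-0.15 to 0.05), met-2 (-0.00 to 0.05), set-26 (-0.55 to 0.54), hda-1 (-0.03 to 0.07), lin-9 (-0.02 to 0.18), lin-15B (-0.10 to 0.14), hpl-2 (-0.09 to 0.06), lin-13 (-0.01 to 0.34) and let-418 (-0.01 to 0.11). Leaving out 1 pair changed it for mes-6 (-0.15 to 0.04), rbr-2 (-0.05 to 0.05), met-1 (-0.05 to 0.23), set-26 (-0.13 to 0.20), hda-1 (-0.08 to 0.08), lin-9 (-0.02 to 0.14), lin-15B (-0.02 to 0.08), hpl-2 (-0.10 to 0.06) and let-418 (-0.07 to 0.16). The causes were not tested. RLE scaling and DESeq2 without the block changed no sign and no call among the 40. The lowest count of any of the 40 in any library was 355, and what set the precision was not tested.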
